A study of Mus musculus with 6 samples.

Results

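A set of 10 transcription factors of oligodendrocyte specification and differentiation were followed in RNA sequencing (RNA-seq) counts of mouse hippocampus. They were chosen by name from their known roles out of the 37315 genes listed in the files, and all 10 passed the filter on low counts in every comparison. The series held 6 libraries, 1 for each group, from C57BL/6J mice at 4 weeks of age. In the Nestin-Cre experiment, a library of Prrc2a flox/flox (f/f) mice, written f/f(N), was set against Prrc2a f/f mice with nestin-cre, a recombinase active in neural progenitors and therefore also in the neurons and glia that descend from them. In the Olig2-Cre experiment, a second f/f library, written f/f(O), was set against Prrc2a f/f mice with Olig2-cre, in which the recombinase is read from the endogenous Olig2 promoter. The study describes a loss of Olig2 dose from that allele alone, and no library of Olig2-cre without the floxed gene was analysed here. As a control for this, the study used Prrc2a f/+ mice with Olig2-cre. By RT-qPCR it reported lower Olig2 and myelin genes in f/f mice with Olig2-cre. In the Fto experiment, a wild-type (WT) library was set against Fto Tg, a lentiviral transgene under the ubiquitin C promoter that is not limited to glia. All 4 libraries of the Prrc2a experiments carried the floxed allele on both chromosomes. The titles call the f/f controls WT, and whether mice were pooled is not stated. The protein Prrc2a binds RNA at N6-methyladenosine (m6A), and the demethylase Fto takes the methyl group off again. The study asked how both bear on the oligodendroglial lineage.

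Oligodendrocytes, the myelinating cells of the brain, arise from precursors in which the basic helix-loop-helix proteins Olig1 and Olig2 and the homeodomain protein Nkx2-2 set the lineage. Olig2 acts upstream of the SOXE factor Sox10, which together with its relative Sox8 is kept through the lineage and activates myelin genes. Myrf is switched on when precursors leave the cell cycle and is needed to make and keep myelin, and Nkx6-2, Zfp488, Zfp536 and the Wnt effector Tcf7l2 act at the step from precursor to myelinating cell. Olig1, Olig2, Sox10, Sox8 and Nkx2-2 were taken as the 5 early factors and Myrf, Nkx6-2, Zfp488, Tcf7l2 and Zfp536 as the 5 late factors. The split follows textbook roles, and several of these genes act at both stages.

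The study describes GGAC as the consensus motif of the m6A mark, and at Olig2 a conserved motif written GGACT in DNA letters. This motif was searched on the mRNA strand of the longest coding sequence of each gene (GENCODE M21, GRCm38, the same assembly as mm10). Of 16455 genes with at least 10 counts and a coding sequence, 76.7% held the motif at least once, with a median of 1.07 per kb. Among the 10 factors, Olig1 (783 coding bases) and Nkx6-2 (834 coding bases) held none. Olig2 held 2 in 972 bases, Zfp488 2 in 1014 bases, Myrf 3 and Zfp536 5, and Sox10, Sox8, Nkx2-2 and Tcf7l2 held 1 each. A match shows only that the letters are there. A gene without a match may still carry m6A, since other forms of the consensus and the untranslated ends were not searched. The study placed an m6A peak in the Olig2 coding sequence, and its primers for that peak bound coding positions 109 to 177. This stretch is shown first, at chr16:91226508-91226576 on the plus strand, with the motif in capitals and its A at coding position 112.
Olig2 peak stretch: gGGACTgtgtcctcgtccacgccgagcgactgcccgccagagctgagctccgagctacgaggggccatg
The other Olig2 match has its A at coding position 5, beside the start codon (chr16:91226400-91226416). It is shown with the matches of 2 further genes on which the results turn, Myrf (chr19:10223455-10223479, chr19:10221197-10221221 and chr19:10215036-10215060, minus strand) and Sox10 (chr15:79159311-79159335, minus strand), each with up to 10 bases on either side.
Olig2 start: atGGACTcggacgccag
Myrf site 1: caggaacctgGGACTgtcacagcct
Myrf site 2: tcaagcccctGGACTgcttctatct
Myrf site 3: catgaccaccGGACTaccaggcaca
Sox10 site: aggaccatccGGACTacaagtacca
Zfp488, a zinc finger repressor that binds Olig2, has its matches at chr14:33971032-33971056 and chr14:33970620-33970644 on the minus strand and is shown because its counts went the other way in 1 pair.
Zfp488 site 1: tgagccttgtGGACTctgacactgc
Zfp488 site 2: ggagctctcaGGACTcatcaccact

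Library totals ran from 18616540 counts in Olig2-Cre to 35482589 counts in f/f(N), so that 3 counts equal 0.0845 to 0.161 CPM (counts scaled to a library total of 1000000). The Nestin-Cre library stood apart from the other 5. Mitochondrial genes took 26.2% of its counts against 7.97% to 8.86% elsewhere, and the mean transcript GC content, weighting each gene by its counts, was 45.7% against 48.5% to 49.2%. Prrc2a had 434 CPM in f/f(N) and 184 CPM with Nestin-Cre, 389 CPM in f/f(O) and 346 CPM with Olig2-Cre, and 351 and 334 CPM in WT and Fto Tg. Fto had 158 CPM in WT and 354 CPM in Fto Tg, and 136 to 164 CPM in the other 4 libraries. Each of the 12 neuronal markers fixed for this tissue had counts in every library, with a summed level of 10631 to 12474 CPM.

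In the 3 control libraries the factors spanned a wide range of levels. Compared per length, as RPKM (CPM divided by exon length in kb), Olig1 was highest at 63.8 ± 3.92 RPKM (SD, n = 3). Sox8 followed at 19.9 ± 1.25, Zfp488 at 19.1 ± 4.34, Olig2 at 15.7 ± 1.27 and Sox10 at 15.1 ± 1.94 RPKM, and each of these 4 overlapped its neighbour in the order over the 3 libraries. Below them came Myrf at 8.08 ± 0.12, Nkx6-2 at 6.67 ± 0.97 and Zfp536 at 4.12 ± 0.38 RPKM, which did not overlap their neighbours. Nkx2-2 at 1.68 ± 0.27 and Tcf7l2 at 1.30 ± 0.27 RPKM were lowest and overlapped each other. The values of Sox8, Nkx2-2 and Nkx6-2 leave out reads shared with overlapping genes, so their places in this order may be too low. How many reads were lost was not measured. The spread between the controls in CPM also differed by gene. It was least for Myrf, with a coefficient of variation of 1.49%, was 6.15% for Olig1 and 8.11% for Olig2, and was widest for Tcf7l2 (20.8%) and Zfp488 (22.7%).

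Differences within a pair are given as log2 ratios of CPM, altered library over its control, with 0.5 added to each count and 95% counting intervals. A gene was called higher or lower when the read test of the study (the MARS model of DEGseq) gave a false discovery rate below 0.001 and a fold change of at least 1.2. With 1 library per group this test compares 2 libraries and not 2 genotypes, and no p is given for it. In whole tissue, fewer cells of a type and less RNA per cell cannot be told apart.

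Olig1 moved in opposite directions among the altered libraries. Its level was 138 CPM (95% Wilson interval 134 to 142) in f/f(N) against 16.5 CPM (15.2 to 17.9) with Nestin-Cre. In the Olig2-Cre experiment it had 129 CPM (125 to 134) in f/f(O) against 186 CPM (179.9 to 192) with Olig2-Cre, and in the Fto experiment 146 CPM (142 to 151) in WT against 261 CPM (255 to 266) in Fto Tg. The Nestin-Cre library thus lay below the 3 controls and the other altered libraries lay above all of them. The log2 ratios were -3.06 (-3.16 to -2.97), 0.52 (0.46 to 0.59) and 0.83 (0.78 to 0.88), and Olig1 was called in each pair.

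Olig2, whose product is needed for the lineage to form, was lower in each altered library. Its level was 38.9 CPM (36.9 to 41.1) in f/f(N) against 15.5 CPM (14.2 to 16.8) with Nestin-Cre, 36.9 CPM (34.7 to 39.1) in f/f(O) against 23.7 CPM (21.6 to 26.1) with Olig2-Cre, and 43.2 CPM (40.7 to 45.8) in WT against 31.5 CPM (29.7 to 33.4) in Fto Tg. None of the altered libraries reached the lowest control. The log2 ratios were -1.33 (-1.47 to -1.19), -0.63 (-0.78 to -0.48) and -0.45 (-0.57 to -0.33), and Olig2 was called lower in each pair. In the Olig2-Cre pair the Cre allele itself and the deletion of Prrc2a cannot be told apart, for Olig2 or for any other gene.

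**Figure D1:**
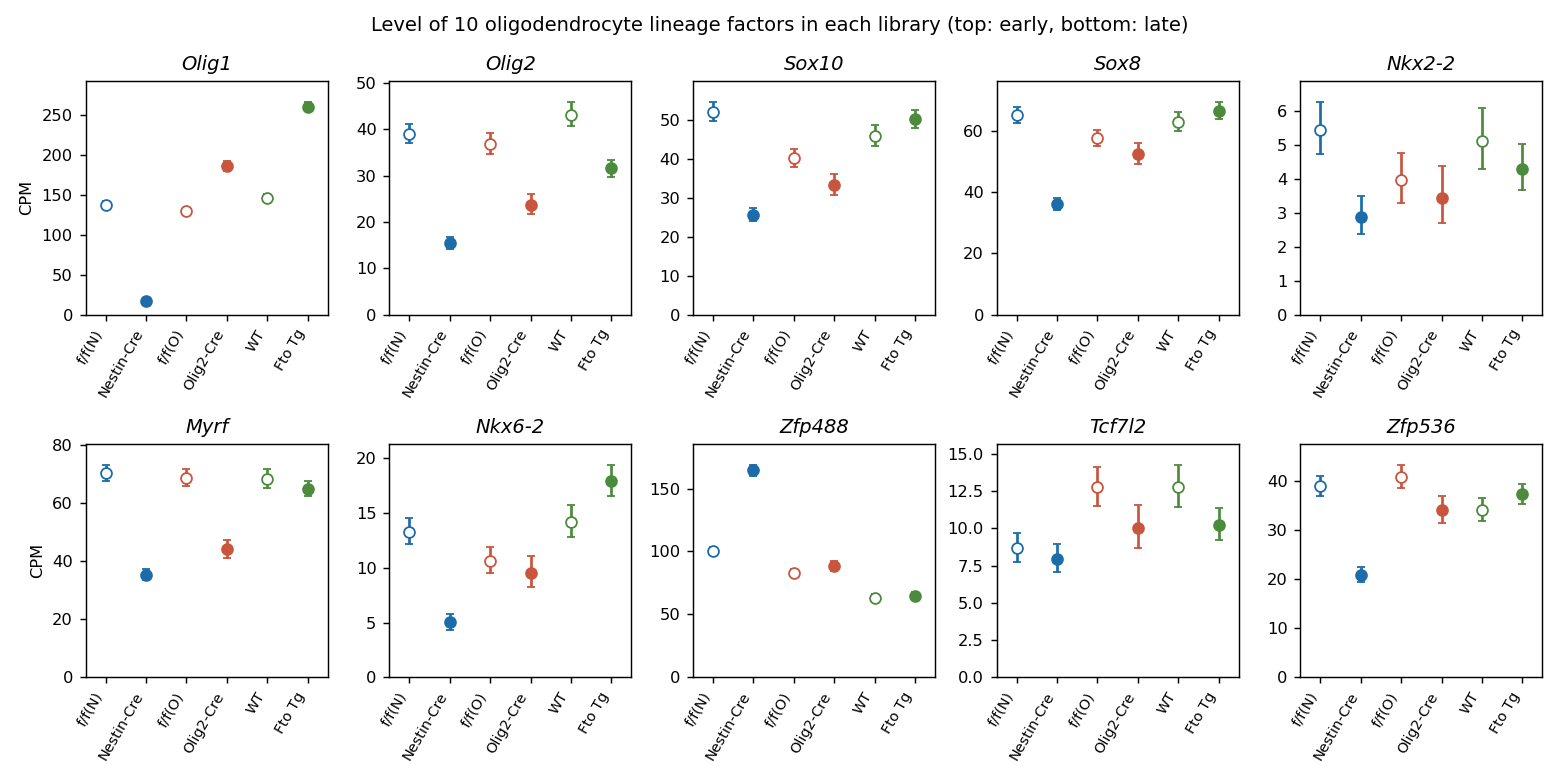
Level of each of the 10 factors in the 6 libraries, in CPM on axes that start at 0, with early factors in the upper row and late factors in the lower row. Open points are controls, filled points altered libraries, colours mark the 3 experiments, and bars are 95% Wilson intervals; Olig1 falls to 16.5 CPM with Nestin-Cre and reaches 261 CPM in Fto Tg, whereas Olig2 is below its 3 controls in every altered library.

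Olig1 and Olig2 lie on the same strand of chromosome 16, Olig2 at 91225457 to 91228677 and Olig1 at 91269772 to 91271933, with 41094 bases between them. The ratio of their counts within a library does not depend on how libraries are scaled. It was 3.54 (3.34 to 3.76), 3.51 (3.28 to 3.76) and 3.39 (3.17 to 3.63) in the 3 controls, whose intervals overlapped. It was 1.07 (0.95 to 1.198) with Nestin-Cre, 7.83 (7.10 to 8.65) with Olig2-Cre and 8.27 (7.77 to 8.80) in Fto Tg. The altered libraries were therefore outside the controls in both directions, and those of Olig2-Cre and Fto Tg overlapped each other. The ratio of Sox10 to Sox8, the 2 SOXE factors, varied less. It was 0.70 to 0.80 in the controls and 0.71, 0.63 and 0.75 with Nestin-Cre, Olig2-Cre and Fto Tg, where the interval of Olig2-Cre (0.57 to 0.70) overlapped that of its own f/f control (0.65 to 0.75).

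**Figure D2:**
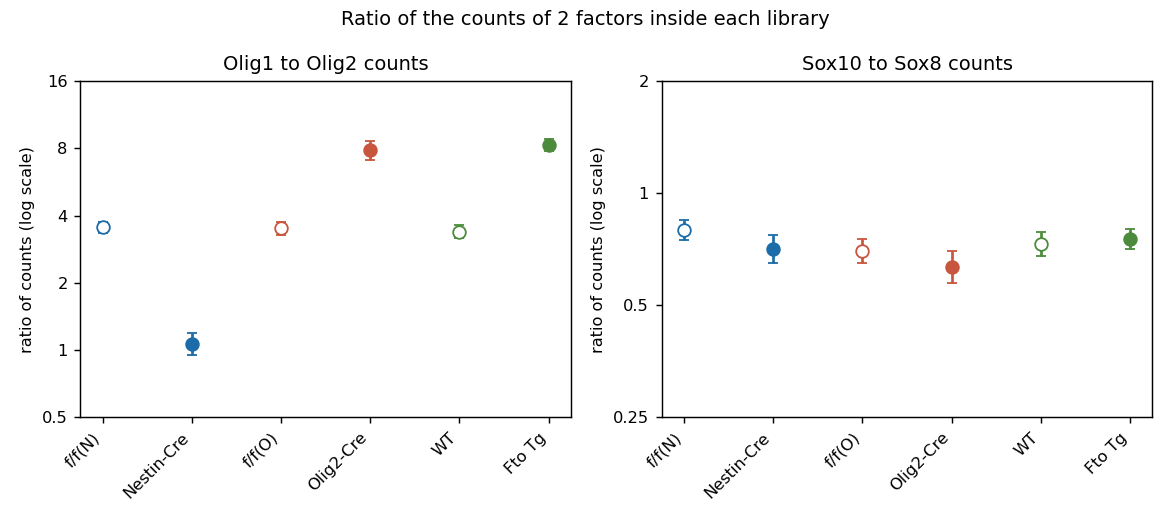
Ratio of the counts of Olig1 to Olig2 (left) and of Sox10 to Sox8 (right) within each library, on log axes, with 95% counting intervals. Open points are controls and filled points altered libraries; the Olig1 to Olig2 ratio is 3.39 to 3.54 in the controls, 1.07 with Nestin-Cre, 7.83 with Olig2-Cre and 8.27 in Fto Tg, and the Sox10 to Sox8 ratio stays between 0.63 and 0.80.

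Sox10 had 52.1 and 25.6 CPM in f/f(N) and Nestin-Cre, 40.2 and 33.3 CPM in f/f(O) and Olig2-Cre, and 45.9 and 50.2 CPM in WT and Fto Tg. Both Cre libraries were below the 3 controls, whereas Fto Tg lay among them. Sox10 was called lower in the Nestin-Cre pair, at -1.02 (-1.14 to -0.91), and in the Olig2-Cre pair, at -0.27 (-0.41 to -0.14), and not in the Fto pair, at 0.13 (0.02 to 0.23). The difference of the Olig2-Cre pair was smaller than that between the 2 f/f libraries, where Sox10 was called at -0.37 (-0.48 to -0.27), and it was not called with DESeq2 size factors (-0.25).

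Sox8 had 65.3 and 36.2 CPM in f/f(N) and Nestin-Cre, 57.6 and 52.5 CPM in f/f(O) and Olig2-Cre, and 62.9 and 66.6 CPM in WT and Fto Tg. It was called lower with Nestin-Cre, at -0.85 (-0.95 to -0.75), and was not called in the Olig2-Cre pair (-0.13, -0.24 to -0.02) or the Fto pair (0.08, -0.01 to 0.17). Sox8 shares sequence with a non-coding gene on the other strand, 2810468N07Rik (7.59 to 33.2 CPM). The counts were made without strand in union mode, so reads in the shared stretch were given to neither gene. The values of Sox8 leave these reads out.

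Nkx2-2 was measured on few reads. It had 5.44 and 2.88 CPM in f/f(N) and Nestin-Cre (193 and 100 counts), 3.96 and 3.44 CPM in f/f(O) and Olig2-Cre (115 and 64 counts), and 5.12 and 4.30 CPM in WT and Fto Tg (129 and 150 counts). It was called lower with Nestin-Cre at -0.92 (-1.25 to -0.58), and was not called with f/f(O) as the control (-0.46), with TMM (-0.23) or with DESeq2 size factors (-0.20). At -0.20 (-0.62 to 0.23) and -0.25 (-0.59 to 0.08) a difference in the Olig2-Cre and Fto pairs was not detectable at this depth.

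Among the late factors, Myrf showed the steadiest controls and was below them in every altered library. Its level was 70.3 CPM (67.6 to 73.2) in f/f(N) against 35.3 CPM (33.4 to 37.4) with Nestin-Cre, 68.7 CPM (65.7 to 71.8) in f/f(O) against 44.1 CPM (41.2 to 47.2) with Olig2-Cre, and 68.5 CPM (65.3 to 71.8) in WT against 65.0 CPM (62.4 to 67.7) in Fto Tg. The interval of Fto Tg overlapped that of WT, so its place below the controls rested on a difference within counting error. Myrf was called lower at -0.99 (-1.09 to -0.90) with Nestin-Cre and at -0.64 (-0.75 to -0.53) with Olig2-Cre, and was not called in the Fto pair at -0.07 (-0.16 to 0.01). Between control libraries its log2 ratio was no more than 0.04 in size, and Myrf was called in none of these 3 comparisons.

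Nkx6-2, a homeodomain factor of maturing oligodendrocytes, had 13.3 and 5.01 CPM in f/f(N) and Nestin-Cre, 10.6 and 9.56 CPM in f/f(O) and Olig2-Cre, and 14.2 and 17.9 CPM in WT and Fto Tg. The Nestin-Cre and Olig2-Cre libraries were below the controls and Fto Tg was above them. It was called lower with Nestin-Cre at -1.41 (-1.64 to -1.17), and was not called at -0.15 (-0.41 to 0.10) with Olig2-Cre. In the Fto pair its log2 ratio of 0.33 (0.15 to 0.52) was not called, although it was called higher with TMM (0.36) or DESeq2 size factors (0.37). WT was higher than f/f(O) by as much, at 0.42 (0.20 to 0.63).

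Zfp488 was the factor whose counts were higher in the Nestin-Cre library. Its level was 100.5 CPM (97.2 to 104) in f/f(N) against 164 CPM (160 to 169) with Nestin-Cre, 82.8 and 88.4 CPM in f/f(O) and Olig2-Cre, and 63.1 and 64.7 CPM in WT and Fto Tg. It was called higher with Nestin-Cre at 0.71 (0.65 to 0.77), and not in the Olig2-Cre pair (0.09, 0.01 to 0.18) or the Fto pair (0.036, -0.055 to 0.13). The control libraries differed nearly as much, since WT was lower than f/f(N) by -0.67 (-0.75 to -0.59), and Zfp488 was called in all 3 pairs of controls.

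Tcf7l2 had 8.65 and 7.94 CPM in f/f(N) and Nestin-Cre, 12.7 and 10.04 CPM in f/f(O) and Olig2-Cre, and 12.8 and 10.2 CPM in WT and Fto Tg. It was called in none of these pairs, at -0.12 (-0.36 to 0.11), -0.34 (-0.59 to -0.10) and -0.32 (-0.54 to -0.11). Of the 2 f/f libraries, f/f(N) was itself the lower, and f/f(O) differed from it by 0.56 (0.34 to 0.78) and was called. Thalamic neurons also express Tcf7l2, and the 12 markers of that neighbouring tissue summed to 200 to 258 CPM in the controls and 179.8, 220 and 230 CPM in Nestin-Cre, Olig2-Cre and Fto Tg. Of these, 2 were called lower and 3 higher with Olig2-Cre, and 3 lower and 1 higher in Fto Tg. With Nestin-Cre, 6 of 11 tested were lower and 3 higher (3 lower and 7 higher with TMM). Over all tested genes, 6.91% were lower and 4.95% higher with Olig2-Cre, and 8.51% and 6.97% in Fto Tg. With Nestin-Cre these shares were 53.4% and 11.5% (30.1% and 28.5% with TMM). Slc17a6, the vesicular glutamate transporter typical of thalamus, fell from 35.9 to 16.4 CPM with Olig2-Cre and from 41.2 to 27.7 in Fto Tg. It had 32.6 CPM in f/f(N) and 33.8 CPM with Nestin-Cre. Prkcd rose from 29.7 to 39.2 CPM with Olig2-Cre. Calb2 rose from 32.8 to 43.6 CPM there and from 38.3 to 52.3 CPM in Fto Tg. The part of dissection in the values of Tcf7l2 was not tested.

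Zfp536, a zinc finger repressor, had 39.0 and 20.9 CPM in f/f(N) and Nestin-Cre, 40.9 and 34.1 CPM in f/f(O) and Olig2-Cre, and 34.1 and 37.4 CPM in WT and Fto Tg. It was called lower with Nestin-Cre at -0.90 (-1.03 to -0.77). At -0.26 (-0.40 to -0.13) with Olig2-Cre it was just under the fold threshold and was called lower with TMM (-0.27), and WT differed from f/f(O) by the same amount, at -0.26 (-0.39 to -0.14). In the Fto pair it was not called at 0.13 (0.01 to 0.25).

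By pair, 8 of the 10 factors were called lower and 1 higher with Nestin-Cre. The background in this pair was 53.4% of 18170 genes called lower and 11.5% called higher, with a median log2 ratio over all tested genes of -0.72. All 5 early factors and 3 of the 5 late factors were among those lower, and the median log2 ratio was -1.02 for the early and -0.90 for the late factors. With TMM scaling, which moved the median of all genes to -0.03, Olig1 (-2.38), Olig2, Sox10, Myrf and Nkx6-2 were called lower, and Zfp488 and Tcf7l2 higher. The background was then 30.1% lower and 28.5% higher, and the medians were -0.34 for the early and -0.22 for the late factors. The summed CPM of the early factors went from 299.7 in f/f(N) to 96.6 with Nestin-Cre. That of the late factors was 232 and 234, and without Zfp488 it was 131 and 69.2.

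In the Olig2-Cre pair, 3 factors were called lower, Olig2, Sox10 and Myrf, and 1 higher, Olig1. In the background 6.91% of 17742 genes were called lower and 4.95% higher. The median log2 ratio was -0.20 for the early and -0.26 for the late factors, beside -0.0031 over all tested genes. In the Fto pair, Olig2 was the 1 factor called lower and Olig1 the 1 called higher, with a background of 8.51% lower and 6.97% higher among 18051 genes. No late factor was called there, and the medians were 0.08 for the early and 0.036 for the late factors. The early median minus the late median was -0.12, 0.06 and 0.05 in the 3 pairs. Between control libraries this difference was -0.145 for f/f(O) against f/f(N), -0.014 for WT against f/f(N) and 0.195 for WT against f/f(O). Taken on median levels in log2 CPM, it had an SD of 0.26 over the 3 control libraries. In both Cre pairs the sign of early minus late depended on the control. Against the other f/f library it was 0.29 for Nestin-Cre and -0.45 for Olig2-Cre. With an exact test that takes its spread from the 3 control libraries (edgeR, biological coefficient of variation 0.147), 8 factors were still called lower and 1 higher with Nestin-Cre, beside 44.8% and 7.41% of all tested genes. None was called in the Olig2-Cre pair, where the test called 0.113% of genes lower and 0.113% higher, or in the Fto pair, where it called 0.277% lower and 0.111% higher.

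Pairs of control libraries gave the size of difference seen without a deletion or transgene, although each such pair crosses experiments. f/f(O) against f/f(N) had Sox10 and Zfp488 called lower and Tcf7l2 higher (13.1% of all tested genes called in either direction). WT against f/f(N) had Zfp488 lower and Tcf7l2 higher (17.3% called). WT against f/f(O) had Zfp488 lower (7.2% called). Olig1, Olig2 and Myrf were called in no control pair, with log2 ratios of at most 0.18, 0.23 and 0.04 in size. After the adjustment for GC content and length described below, Olig1 was called higher in WT against f/f(N), at 0.33, and Olig2 in WT against f/f(N), at 0.33, and against f/f(O), at 0.29, whereas Myrf was called in none.

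**Figure D3:**
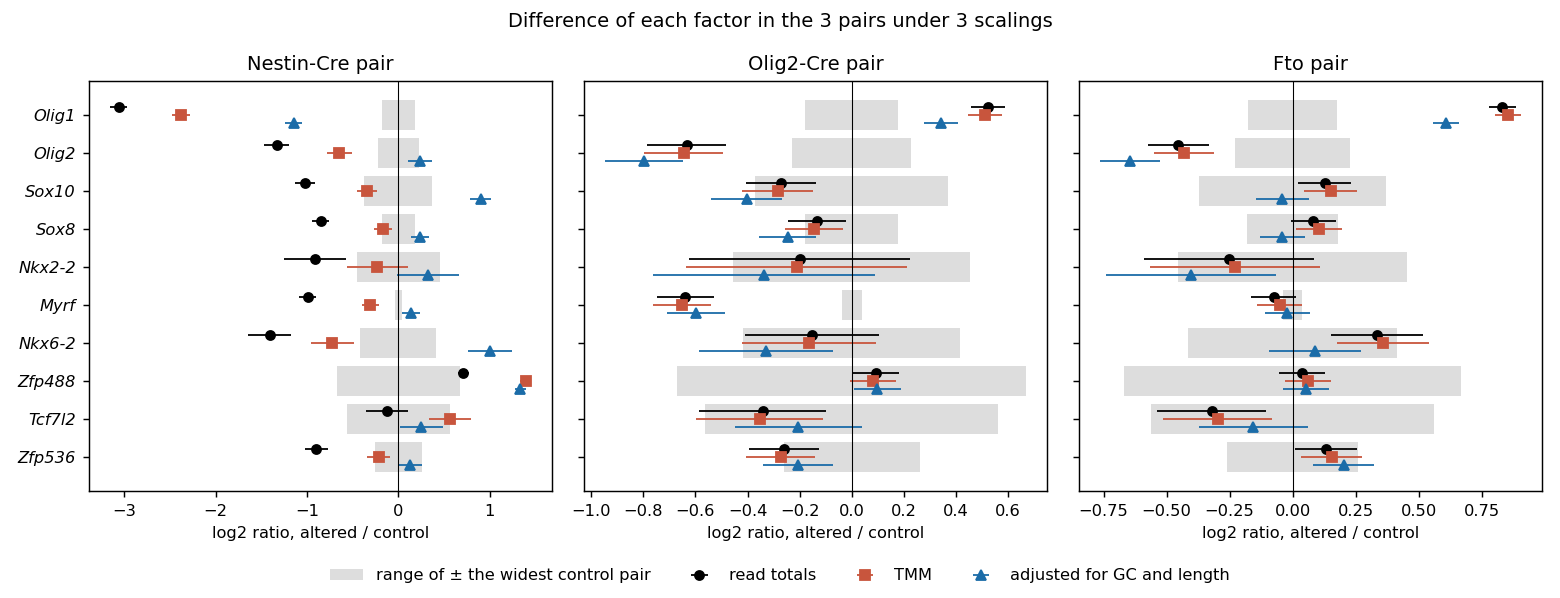
Log2 ratio of each factor in the 3 pairs, altered over control, scaled by library totals (black), with TMM (red) and after adjustment for GC content and length (blue), with 95% counting intervals; each panel has its own axis range. Grey bars run from minus to plus the largest difference between 2 control libraries for that gene, scaled by library totals only. After the adjustment, control differences reach 0.33 for Olig1, 0.33 for Olig2 and 0.17 for Myrf. In the Olig2-Cre pair Olig2 and Myrf lie below their grey bars and Olig1 above its own with each scaling. In the Nestin-Cre pair the adjustment moves every factor other than Olig1 to a value above 0.

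GC content was a further difference among the factors. The longest transcripts of 8 of them had 54.2% to 64.3% GC, above 74.1% to 99.4% of the genes tested in the Nestin-Cre pair, whose median was 49.6%. Zfp488 at 48.2% and Tcf7l2 at 47.3% were below that median. These were the 2 factors that were not called lower with Nestin-Cre. In that pair, over 13630 genes with at least 100 counts, the 10% of genes with the least GC (up to 41.3%) had a median log2 ratio of -0.15 and the 10% with the most (from 57.9%) had one of -1.68. A fit on GC content and exon length gave -1.57 for Olig2, -1.93 for Sox10, -1.13 for Myrf, -2.41 for Nkx6-2 and -0.63 for Zfp488. Relative to the fit, Olig1 alone was called lower (-1.15), whereas Nkx6-2 (1.004), Sox10 (0.90) and Zfp488 (1.34) were called higher, with a background of 27.8% lower and 27.6% higher. Olig2 (0.24), Sox8 (0.24), Nkx2-2 (0.32), Myrf (0.14), Tcf7l2 (0.25) and Zfp536 (0.13) were then not called. Library composition and the deletion cannot be told apart for these genes with 1 library.

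In the Olig2-Cre and Fto pairs the trend with GC content was smaller and ran the other way, with medians of -0.14 and 0.11 and of -0.15 and 0.14 in the lowest and highest 10%. The adjustment changed no call of a factor there. Olig2 was at -0.80 and -0.64, Olig1 at 0.34 and 0.61, Sox10 at -0.40 and -0.041 and Myrf at -0.60 and -0.021 in the Olig2-Cre and Fto pairs after it. The difference between the log2 ratios of Olig1 and Olig2 moved little, from 1.16 to 1.14 and from 1.29 to 1.25, and in the Nestin-Cre pair it went from -1.73 to -1.38. That between Sox10 and Sox8 went from -0.17 to 0.66 in the Nestin-Cre pair, from -0.14 to -0.16 with Olig2-Cre and from 0.045 to -0.00054 in the Fto pair.

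**Figure D4:**
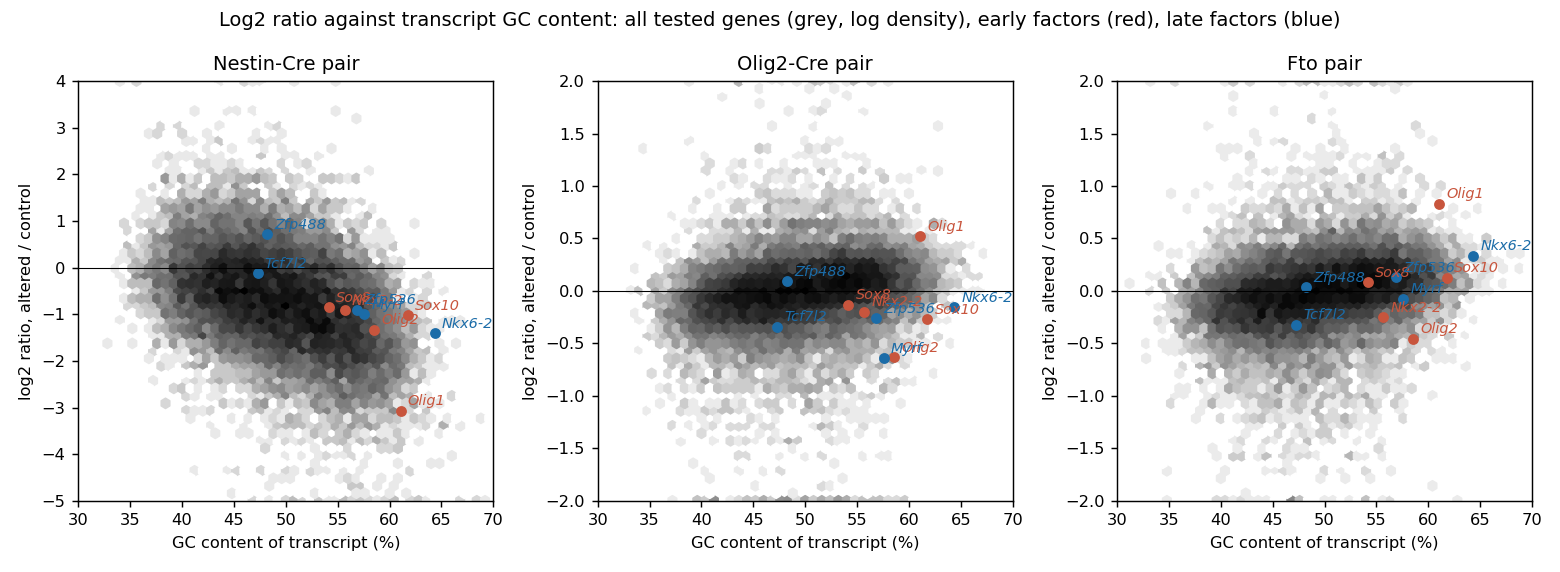
Log2 ratio against the GC content of the longest transcript (percent) in the 3 pairs, with all tested genes as grey log-scaled density, early factors in red and late factors in blue; the panels differ in their vertical range, and values beyond it are drawn at its edge. In the Nestin-Cre pair the ratios of all genes fall with GC content, and Zfp488 (48.2% GC) and Tcf7l2 (47.3% GC) stand at the upper left of the other 8 factors.

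Further tests used more than 1 pair. The 3 altered libraries were all below the 3 controls for Olig2 and Myrf and all above them for no factor, against a background of 10.8% of 20506 genes below and 1.89% above. Leaving out the Nestin-Cre library can only add genes to these counts. It added no factor below the controls (background 17.3%) and Olig1 above them (background 15.9%). The 2 Cre libraries against the 2 f/f libraries, the 1 contrast with more than 1 library a side, gave no factor at a false discovery rate of 0.05 with edgeR's quasi-likelihood test. The background was 0% of 16921 genes, with 143 genes and none of the factors at an unadjusted p below 0.05, and 1 gene, no factor, with DESeq2. Olig2 had a log2 difference of -0.63 ± 0.28 (SE), Myrf of -0.46 ± 0.29 and Zfp488 of 0.95 ± 0.58, and the adjusted p of edgeR was 0.955 for all of them. Leaving out a library leaves 1 alone on its side, so only log2 differences are given for these fits. Without the Olig2-Cre library the difference was -2.32 for Olig1, -0.59 for Olig2 and 1.55 for Zfp488. Without the Nestin-Cre library it was 0.48, -0.67 and -0.049.

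Other regulators of the lineage were counted from lists fixed by role. Over all tested genes, 53.4% were lower and 11.5% higher with Nestin-Cre (median -0.72), and 30.1% and 28.5% with TMM. The shares were 6.91% and 4.95% with Olig2-Cre and 8.51% and 6.97% in Fto Tg. Of 27 further activators of oligodendrocyte development, 11 were called higher and 8 lower with Nestin-Cre (median log2 ratio 0.14), which became 18 higher and 4 lower with TMM (median 0.82). In the other pairs 1 was higher and 5 lower with Olig2-Cre (0.03), and 1 higher and 4 lower in Fto Tg (-0.05). Thra, a thyroid hormone receptor, fell from 585 to 191 CPM and Zeb2, a repressor of inhibitory signals, rose from 251 to 473 CPM with Nestin-Cre. St18, a zinc finger relative of Myt1, fell from 34.6 to 25.9 CPM with Olig2-Cre.

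Of 17 inhibitors of differentiation, 11 were called lower and none higher with Nestin-Cre (median -1.17), whereas 9 were lower and 5 higher with TMM. Over all tested genes, 53.4% were lower and 11.5% higher with Nestin-Cre (30.1% and 28.5% with TMM). These shares were 6.91% and 4.95% with Olig2-Cre, and 8.51% and 6.97% in Fto Tg. With Nestin-Cre, Id1 and Id3, which bind basic helix-loop-helix partners, fell from 19.0 to 1.99 and from 45.7 to 5.29 CPM. With Olig2-Cre 3 inhibitors were higher and 2 lower (median -0.02). Among those higher were Id1, from 14.6 to 25.4 CPM, and Id2, from 82.5 to 109 CPM. The 2 lower were Sox11, from 6.92 to 4.14 CPM, and Sox6, from 21.9 to 17.1 CPM. In Fto Tg 1 was lower, Sox5, from 40.1 to 29.8 CPM. Of 13 Wnt partners of Tcf7l2, 8 were lower and 2 higher with Nestin-Cre (2 lower and 5 higher with TMM). Their median was -0.65, beside -0.72 over all tested genes. With Olig2-Cre 2 were lower, and in Fto Tg 1 was lower. Apc, which limits beta-catenin, fell from 370 to 266 CPM with Olig2-Cre and from 421 to 285 CPM in Fto Tg. With Nestin-Cre it was called higher, from 407 to 501 CPM.

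Markers of the stages at which these factors act are given beside them. With Nestin-Cre, 53.4% of all tested genes were lower and 11.5% higher (median -0.72), and 30.1% and 28.5% with TMM. The shares in the other pairs are given above. Of 30 genes of mature oligodendrocytes, 25 were called lower and 1 higher with Nestin-Cre (median -1.45, and 19 lower and 6 higher with TMM), 15 lower in the Olig2-Cre pair (-0.29) and 10 higher in the Fto pair (0.24). Their summed level was 10075 to 11605 CPM in the controls and 7539, 7966 and 13241 CPM in Nestin-Cre, Olig2-Cre and Fto Tg. Of 11 precursor markers found, 7 were lower and 3 higher with Nestin-Cre (median -0.63, and 4 lower and 5 higher with TMM). With Olig2-Cre 4 were lower, and in Fto Tg 4 were lower and 2 higher. Of 12 markers of committed precursors, 7 were lower and 2 higher with Nestin-Cre (median -0.63, and 3 lower and 5 higher with TMM). With Olig2-Cre 4 were lower, and in Fto Tg 1 was lower and 1 higher. Both precursor medians with Nestin-Cre were less negative than that of all tested genes. Pdgfra, the growth factor receptor of precursors, had 75.2 and 46.0, 69.8 and 52.4, and 90.0 and 67.9 CPM in the 3 pairs, and Gpr17, a receptor of committed precursors, 106 and 39.0, 82.8 and 67.4, and 78.6 and 75.1 CPM. In Fto Tg, Olig2 was thus called lower in a library in which no mature marker was.

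Markers of other cells varied too. The 10 choroid plexus and ependymal markers, from a tissue that borders the hippocampus, summed to 1678 to 2910 CPM in the controls and to 280, 3467 and 719 CPM in Nestin-Cre, Olig2-Cre and Fto Tg. The 12 astrocyte markers summed to 5790 to 5951 CPM in the controls and to 6129, 5604 and 5340 CPM. Of these, 3 were called higher and 6 lower with Nestin-Cre (6 higher and 5 lower with TMM). In the other pairs 4 were higher and 1 lower with Olig2-Cre, and 2 higher and 1 lower in Fto Tg. Over all tested genes, 11.5% were higher and 53.4% lower with Nestin-Cre (28.5% and 30.1% with TMM). These shares were 4.95% and 6.91% with Olig2-Cre, and 6.97% and 8.51% in Fto Tg. The 1 astrocyte marker lower in the Olig2-Cre and Fto pairs was the glutamate transporter Slc1a2, from 3281 to 2519 and from 3164 to 2431 CPM. Gfap was called higher in all 3 pairs, from 298 to 566, 359 to 593 and 334 to 499.99 CPM. The 10 microglial markers summed to 303 to 352 CPM in the controls and to 217, 377 and 371 CPM. Each astrocyte, microglial and choroid plexus marker had counts in all 6 libraries. The part of these cells in the values of the factors was not tested.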

How the data were processed

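Poly(A) RNA libraries (TruSeq) of hippocampus were grouped by title and genotype label. The authors deposited raw counts per gene, with no normalization. Per the study's methods, reads were trimmed with Cutadapt and Trimmomatic, aligned to mm10 with TopHat and counted with HTSeq in union mode without strand on Ensembl release 68, from unique alignments only. The submitters' processing notes name TopHat2 2.0.9 and HTSeq 0.6. Reads shared by overlapping genes were therefore lost, which bears on Sox8, Nkx2-2 and Nkx6-2. The methods describe paired-end reads, and the labels do not say.

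Counts were divided by library totals (CPM) and by the union of exons (RPKM). Wilson 95% intervals, log2 ratio intervals and the floor of 3 counts cover counting error only. The MARS formulas of DEGseq were programmed in R 4.3.3 (0.5 added, at least 10 counts over the pair). The Cre contrast used edgeR 4.0.16 (TMM, filterByExpr, quasi-likelihood test), with DESeq2 1.42.0 as an alternative. The GC and length adjustment was a spline fit (4 degrees of freedom) over genes with at least 100 counts. Counts were also simulated with counting error only, and 200 well-counted genes were changed by a fixed fold. The read test recovered 96% in the Nestin-Cre, 91.5% in the Olig2-Cre and 97% in the Fto pair. That fold was larger than the difference of any factor in the Olig2-Cre and Fto pairs. These rates cover neither smaller changes nor variation between libraries. Symbols and coordinates came from GENCODE M21. All 10 factors are named in all libraries, and from other lists at most 2 called genes per direction and pair with a mean of at least 5 CPM, the largest changes first, plus fixed markers. Some genes under this rule are not reported here. The factors and lists were chosen with earlier results of these data known. The 1 gene named outside this rule, 2810468N07Rik, was chosen for its overlap with Sox8. Alternatives comprised other scalings, filters, pseudocounts, tests and controls. Without replicates, p-values of the Cre contrast measure the spread between libraries of different experiments.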

Additional observations from a re-analysis of the deposited data

Results flagged for a closer look

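Olig1 was flagged because it was called in opposite directions with the 2 Cre drivers that delete Prrc2a. Its log2 ratio was -3.06 in the Nestin-Cre pair and 0.52 in the Olig2-Cre pair. With TMM scaling these values were -2.38 and 0.51, and after the GC and length adjustment -1.15 and 0.34, so the directions were kept. With 1 library for each driver, the difference between the drivers was not tested. In the Olig2-Cre pair the Cre allele and the deletion of Prrc2a cannot be told apart for Olig1 either. The groups held 1 library each, so no library could be compared with others of its group.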

How the results depend on the processing

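In the Nestin-Cre pair, 41 of 60 recomputed log2 ratios kept direction and call, in the Olig2-Cre pair 53 of 60 and in the Fto pair 46 of 50. With Nestin-Cre, the factors called lower numbered 5 with TMM, 5 with DESeq2 size factors, 1 after the GC and length adjustment, and those called higher 2, 2 and 3. The early median was -0.34 with TMM, -0.31 with DESeq2 size factors, -0.71 with totals without mitochondrial genes, 0.24 after the adjustment and -0.67 with the other f/f control. The late median was -0.22, -0.18, -0.58, 0.25 and -0.96, which with the other f/f control reversed the order of early and late. After the adjustment the log2 ratios of Olig2 (0.24), Sox10 (0.90), Sox8 (0.24), Nkx2-2 (0.32), Myrf (0.14), Nkx6-2 (1.004) and Zfp536 (0.13) turned from below to above 0. Tcf7l2 turned to 0.56 (TMM), 0.59 (DESeq2 size factors), 0.20 without mitochondrial genes and 0.25 after the adjustment, and was called lower at -0.68 with the other f/f control, where Nkx2-2 was no longer called (-0.46). By construction the adjustment removes what all genes of like GC content and length share, and TMM removes the shift of most genes. The cause of the other changes was not tested.

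In the Olig2-Cre pair, 5 factors were called lower with the other f/f control, and the share of all genes called against it was not counted. The early median was then -0.64, beside 3.0e-06 over all tested genes, and Zfp488 turned to -0.18 and Tcf7l2 to 0.22. Sox10 was no longer called with DESeq2 size factors (-0.25), and Zfp536 became called with TMM (-0.27) and without mitochondrial genes (-0.26). The exact test called 0 lower and 0 higher there, and 0 lower and 0 higher in the Fto pair. In the Fto pair 2 factors were called higher with TMM and 2 with DESeq2 size factors, the second being Nkx6-2, and Sox10 (-0.041) and Sox8 (-0.040) turned below 0 after the adjustment. The filters on low counts and a pseudocount of 1 changed no call in these 3 pairs.

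In the Cre contrast, each library was left out in turn. A lone library left on a side is assumed to vary like the others, so only the log2 differences are given. They ranged from -2.32 to 0.48 for Olig1, from -0.45 to 0.031 for Nkx2-2, from -0.049 to 1.55 for Zfp488 and from -0.15 to 0.40 for Tcf7l2. With the experiment as a block, which pairs each Cre library with its own f/f library, 0 factors passed, and 2 of 16921 genes. Without the Nestin-Cre library, an alternative chosen after seeing the data, 2 factors were below all controls, a count that could not fall. Depth limits Nkx2-2 most, with 64 to 193 counts a library.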
